A study of Mus musculus with 2 samples.

Results

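Olfm4-high cells of the crypt base were followed in single-cell RNA profiles of mouse small intestinal epithelium. The cells were selected by measured values: more than 500 genes, under 25% of unique molecular identifiers (UMIs, counted transcripts) from mitochondrial (mt-) genes, at least 3 Olfm4 UMIs making up at least 5 per 10000 UMIs of the cell, under 1% of UMIs from the goblet cell genes Muc2, Tff3, Zg16, Fcgbp, Clca1 and Spink4 together, and no UMI of Cd3e, Cd3g or Trpm5. This left 92 cells, 25 of 3069 cells that passed the gene and mitochondrial filter in the Adipfl/fl library and 67 of 5555 in the Adipfl/flpVilli-CreT library. Because Olfm4 and the 9 excluded genes chose the cells, their levels are given below as a description only.

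The study asked what adiponectin made in the gut epithelium does to stem cells of the crypt, and each genotype was measured as 1 droplet library of crypt-enriched small intestine. Each library was made from tissue pooled over several mice, so that animals cannot be told apart. Both groups of mice were male littermates, 8 weeks old, and carried the floxed adiponectin alleles (Adipfl/fl). The Adipfl/flpVilli-CreT mice carried in addition a Cre recombinase driven by the villin promoter, which is active in epithelial cells of the intestine. With 1 library per genotype there is no replicate, so a difference between genotypes cannot be told apart from a difference between libraries, no test was run, and every interval below is an exact 95% interval that covers counting error only.

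The intestinal epithelium is renewed from stem cells that sit between Paneth cells at the base of the crypt. These cells divide under Wnt signals, keep Notch signalling on, and give rise to transit-amplifying cells that divide further up the crypt and mature into absorptive enterocytes or into secretory goblet, Paneth, enteroendocrine and tuft cells. Lgr5 (a receptor that strengthens Wnt signals), Ascl2 (a transcription factor of stem cells), Smoc2 (a secreted matrix protein), Slc12a2 (a sodium, potassium and chloride transporter) and Olfm4 (a secreted glycoprotein) are commonly used to mark the crypt base.

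The libraries held 42150623 UMIs in 9791 barcodes (Adipfl/fl) and 63370798 UMIs in 11838 barcodes (Adipfl/flpVilli-CreT). The Olfm4-high cells contributed 491932 and 1470303 UMIs. They were deep cells. The median cell held 15513 UMIs from 4067 genes in Adipfl/fl and 15548 UMIs from 4274 genes in Adipfl/flpVilli-CreT, against a median of 4838 and 4749 UMIs over all passing cells. UMIs per cell ran from 2509 to 67863 and from 2889 to 108846. Their mitochondrial share was 5.32% at the median (1.96% to 22.8%) in Adipfl/fl and 4.78% (1.32% to 23.1%) in Adipfl/flpVilli-CreT. The libraries had 31 barcode sequences in common, and none of the Olfm4-high cells carried one of them. No doublet caller was run, and the selection removed doublets only where they held goblet, T cell or tuft cell transcripts.

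Adipoq, which encodes adiponectin and is the gene the Cre is meant to delete, gave 1 UMI in all barcodes of the Adipfl/fl library and 0 UMIs in the Adipfl/flpVilli-CreT library, where the upper limit set by a count of 0 is 0.0473 CPM (counts per 1000000 UMIs). In the Olfm4-high cells it was at 0 in both libraries, which allows up to 6.10 CPM in Adipfl/fl and 2.04 CPM in Adipfl/flpVilli-CreT. The deletion could therefore not be read from these counts.

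Olfm4 itself was spread widely among the selected cells. It ran from 6.25 through a median of 39.4 to 180 UMIs per 10000 in the 25 Adipfl/fl cells, and from 5.73 through 45.0 to 251 per 10000 in the 67 Adipfl/flpVilli-CreT cells. The cells just inside the threshold held 6.25 and 5.73 Olfm4 UMIs per 10000, and the cells just outside it held 3.90 (Adipfl/fl) and 4.84 (Adipfl/flpVilli-CreT). A further 7 and 13 cells met every other criterion and had 3 or more Olfm4 UMIs but lay below the rate. At least 1 Olfm4 UMI was present in 88 of 3069 passing cells of Adipfl/fl (2.87%) and in 353 of 5555 of Adipfl/flpVilli-CreT (6.35%), yet the selected cells held 83.3% and 84.2% of all Olfm4 UMIs of the passing cells. Of the cells past the Olfm4 threshold (27 and 82), the goblet limit removed 0 and 10, and the T cell and tuft genes removed 2 and 6, with 1 Adipfl/flpVilli-CreT cell removed by both.

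The label of crypt base cells was checked against the 4 other markers, which the selection did not use. After each cell was thinned to 5000 UMIs, which left out 5 Adipfl/fl and 7 Adipfl/flpVilli-CreT cells below that depth, Slc12a2 was seen in 18 of 20 cells (90%, interval 68.3% to 98.8%) and 55 of 60 cells (91.7%, 81.6% to 97.2%). In enterocyte-rich cells of the same libraries (epithelial, not cycling, with at least 2% of UMIs from enterocyte genes), thinned alike, it was seen in 6 of 685 cells (0.876%) and 18 of 1325 cells (1.36%). The thinned enterocyte cells had median depths of 8643 and 8693 UMIs before thinning, and 1130 and 2298 enterocyte-rich cells below 5000 UMIs were left out. Smoc2 was seen in 9 of 20 and 32 of 60 cells against 0.292% and 0.453% of the enterocyte cells. For Lgr5 the counts were 3 of 20 (15%, 3.21% to 37.9%) and 15 of 60 (25%, 14.7% to 37.9%), against 0.146% and 0 of 1325 enterocyte cells, which allows up to 0.226% by a limit of 3 cells. For Ascl2 they were 2 of 20 and 12 of 60, with no enterocyte cell positive in either library. Without thinning, Lgr5 was seen in 7 of 25 and 27 of 67 cells, and Ascl2 in 8 of 25 and 30 of 67. All 4 markers were thus far above the level in enterocyte cells, although Lgr5 and Ascl2 were caught in a minority of cells. In thinned cells at least 1 of the 4 was present in all but 2 of 20 and 2 of 60 cells, and the full set of 4 was present in 0 and 4 cells.

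**Figure D1:**
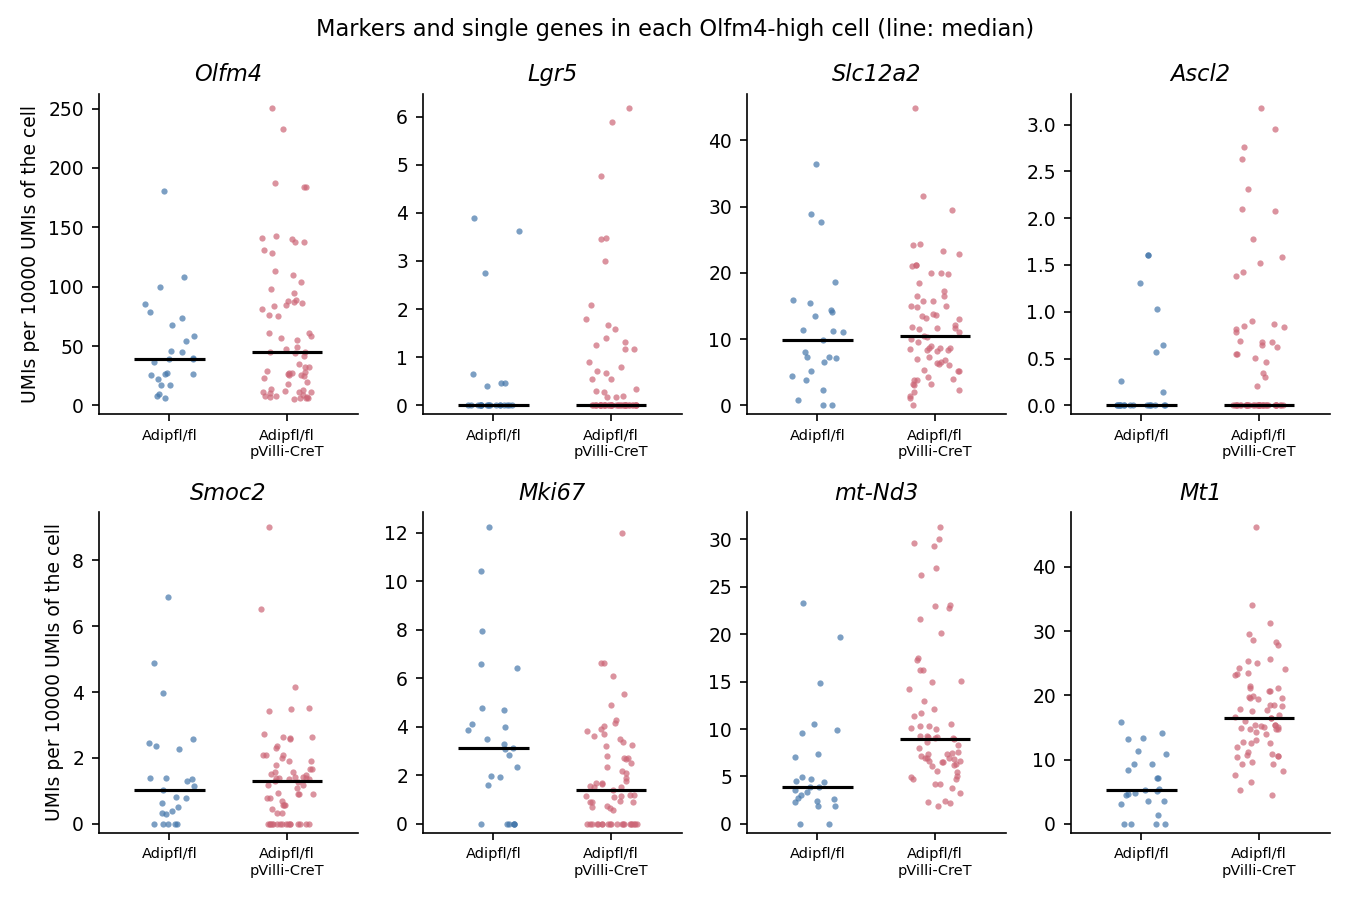
UMIs per 10000 UMIs in each Olfm4-high cell (points; 25 Adipfl/fl cells in blue, 67 Adipfl/flpVilli-CreT cells in red; black line, median) for the 5 crypt base markers and for Mki67, mt-Nd3 and Mt1, each panel with its own linear axis. The median of Mki67 is 3.12 against 1.40, that of mt-Nd3 3.91 against 8.98 and that of Mt1 5.30 against 16.5, while the cell-to-cell ranges of the libraries overlap in every panel.

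Summed over the selected cells, Slc12a2 stood at 1035 CPM (509 UMIs) in Adipfl/fl and 1071 CPM (1574 UMIs) in Adipfl/flpVilli-CreT, a fold of 1.03 (0.936 to 1.15). Smoc2 stood at 124 and 134 CPM, a fold of 1.08 (0.807 to 1.46). Ascl2 stood at 48.8 and 55.8 CPM, a fold of 1.14 (0.718 to 1.88). With equal weight for each cell the Ascl2 fold was 1.92, and without its richest cell, which held 10 of the 24 Ascl2 UMIs of Adipfl/fl, it was 1.69 (0.948 to 3.24). Lgr5 gave 13 UMIs (26.4 CPM) in Adipfl/fl and 78 UMIs (53.1 CPM) in Adipfl/flpVilli-CreT, a fold of 2.01 (1.11 to 3.94), so that Lgr5 reached 50 CPM in Adipfl/flpVilli-CreT alone. The richest cell held 4 Lgr5 UMIs in the first library and 10 in the second, and the fold ran from 1.40, with equal weight for each cell, to 2.48 over the alternative settings. The shares of cells with an Lgr5 UMI after thinning had overlapping intervals. Olfm4, which chose the cells, stood at 4303 and 5331 CPM.

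Levels in the Olfm4-high cells were set beside those of other epithelial cells in each library separately. Comparison sets of the same libraries were used besides all other epithelial cells (2366 and 4629): cycling cells of low Olfm4 (233 and 461 cells with at least 3 UMIs of genes of the G2 and M phases, median 23622 and 21788 UMIs) and the enterocyte-rich cells (1815 and 3623). The 3 UMIs were counted without thinning, so deep cells with few such transcripts could enter the set called cycling. Thinned to 5000 UMIs, 41 of 228 and 95 of 443 cells of that set held an Mki67 UMI, against 14 of 20 and 27 of 60 Olfm4-high cells. All of these folds are a description, since the same cells were selected on Olfm4. Of 1512 genes at 100 CPM or more in the selected cells of both libraries, 631 were at least 2-fold and 162 at least 5-fold above other epithelial cells in both, and 98 were at least 2-fold below them in both. The genes were admitted by their level in the Olfm4-high cells, which favours higher folds.

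The 15 of these genes with the highest folds, taken by the lower of the folds in the libraries, are described by what each is known to do. Lgr5 (106-fold and 60.9-fold) and Ascl2 (122-fold and 77.7-fold) had higher folds but lay below 100 CPM. Among them were the ion transporter Slc12a2, 63.8-fold (55.4 to 73.6) and 48.5-fold (44.6 to 52.8) above other epithelial cells, the water channel Aqp4, 48.3-fold (31.6 to 74.3) and 44.6-fold (34.5 to 57.9), and the potassium channel subunit Kcne3, 26.5-fold and 21.1-fold. Clca3b, a member of the family of chloride channel accessory proteins, stood at 1368 and 1246 CPM, against 52.3 and 86.7 CPM in cycling cells of low Olfm4 and 2.05 and 4.98 CPM in enterocyte cells. Also among the 15 were Cdca7 (47.5-fold and 36.4-fold), Hells, a helicase that works with Cdca7 (36.8-fold and 24.4-fold), Dut, which keeps uracil out of DNA (26.2-fold and 24.3-fold), Uhrf1, which maintains DNA methylation (25.3-fold and 22-fold), and the histone chaperone Nap1l1 (29.1-fold and 22.4-fold). Cdk6, a kinase that drives entry into the cell cycle, was 32.8-fold and 37.3-fold higher. The remaining genes were Olfm4 itself, the antiviral membrane protein Ifitm3 (46.5-fold and 35.5-fold), the actin-binding Cnn3 (26.3-fold and 24.2-fold), Smoc2 (27.0-fold and 22.6-fold) and the adhesion molecule Jaml (22.2-fold and 20.9-fold). Cycling cells of low Olfm4 were also deep, but held lower sums of S phase and of G2 and M phase genes. Compared with them, the 14 genes other than Olfm4 were at least 8.32-fold higher, as Kcne3 in Adipfl/flpVilli-CreT. The highest of these folds was 67.5, for Slc12a2 in Adipfl/fl.

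**Figure D2:**
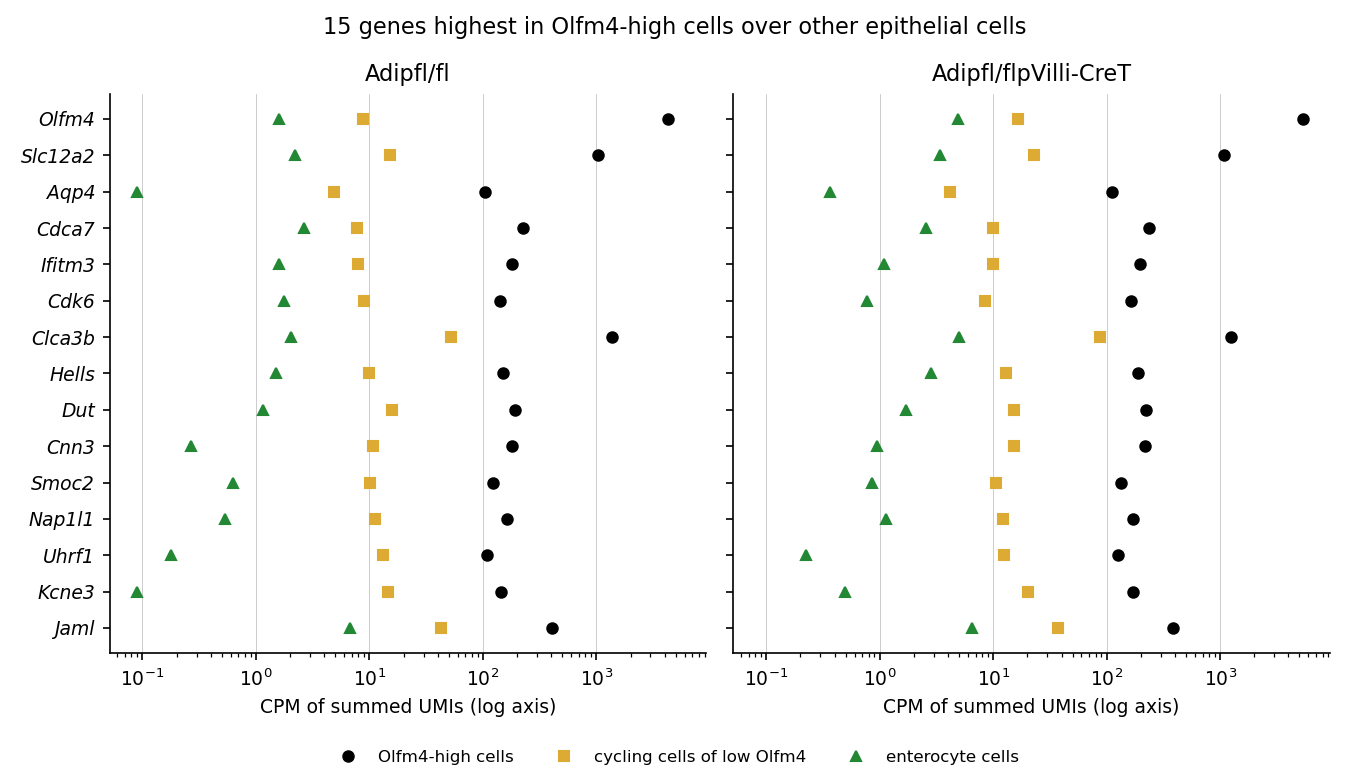
Level (CPM of summed UMIs, log axis) of the 15 genes highest in Olfm4-high cells over other epithelial cells, with genes below 100 CPM in either library left aside, in Olfm4-high cells (black circles), cycling cells of low Olfm4 (yellow squares) and enterocyte-rich cells (green triangles) of each library. Every gene is highest in the Olfm4-high cells, as Slc12a2 at 1035 CPM against 15.3 and 2.23 CPM in Adipfl/fl, and cycling cells of low Olfm4 lie between the other sets.

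Gene groups set the cells apart from cycling cells of low Olfm4 in the same direction in both libraries. S phase genes summed to 2328 and 2631 CPM against 400 and 429 CPM in cycling cells of low Olfm4. Genes of the G2 and M phases summed to 5623 and 4141 CPM against 1832 and 1807 CPM. Those genes had chosen the comparison cells, but by a low unthinned count in deep cells. Cytosolic ribosomal proteins took 197692 and 204501 CPM against 111165 and 105196 CPM, and 22615 and 21463 CPM in enterocyte cells. Lower in the Olfm4-high cells were enterocyte genes, at 2637 and 3299 CPM against 30727 and 28660 CPM, and the antimicrobial lectin Reg3b, at 457 and 531 CPM against 12903 and 13817 CPM. The adiponectin receptors differed from each other. Adipor2 was at 67.1 and 71.4 CPM against 346 and 316 CPM in cycling cells of low Olfm4, a fold of 0.194 (0.133 to 0.273) in Adipfl/fl and 0.226 (0.185 to 0.275) in Adipfl/flpVilli-CreT. Adipor1 was at 83.3 and 105 CPM against 139 and 130 CPM, a fold of 0.6 (0.428 to 0.821) and 0.810 (0.683 to 0.957).

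Most Olfm4-high cells carried transcripts of the G2 and M phases. Among thinned cells, 17 of 20 in Adipfl/fl and 51 of 60 in Adipfl/flpVilli-CreT, 85% in each, had at least 3 UMIs of G2 and M phase genes (intervals 62.1% to 96.8% and 73.4% to 92.9%), with 1 and 8 cells at 2 or 3 UMIs, next to the limit. Of other epithelial cells thinned alike, 86 of 1096 (7.85%, 6.32% to 9.60%) and 210 of 2108 (9.96%, 8.72% to 11.3%) did. Within cells the S phase list ran from 3.89 through a median of 15.8 to 73.0 UMIs per 10000 in Adipfl/fl and from 2.80 through 21.0 to 69.1 in Adipfl/flpVilli-CreT. The G2 and M phase list ran from 1.37 through 35.9 to 129 and from 0 through 25.3 to 101 per 10000. The cell with the highest S phase level of each library lay below its library's median for G2 and M phase genes. The few cells below 3 G2 and M phase UMIs (3 and 9 cells, with a median depth of 14561 and 8634 UMIs before thinning) held more Olfm4, at 7600 CPM (6269 to 9130) against 4459 CPM (4021 to 4931) in Adipfl/fl and 9956 CPM (9055 to 10922) against 6180 CPM (5879 to 6493) in Adipfl/flpVilli-CreT. Slc12a2 was also higher in them, at 2400 against 988 CPM and 2111 against 1141 CPM. Olfm4 had chosen the cells, and both genes varied widely from cell to cell, so these levels are a description only. Ascl2 gave too few UMIs to order the sets, with 0 UMIs in the 3 cells against 4 UMIs in the 17 others of Adipfl/fl, and 3 UMIs in 9 cells (66.7 CPM) against 14 UMIs in 51 cells (54.9 CPM) in Adipfl/flpVilli-CreT. Lgr5 gave 4 UMIs in the 3 cells against 1 UMI in the 17 others in Adipfl/fl, and 9 UMIs in 9 cells against 18 UMIs in 51 cells in Adipfl/flpVilli-CreT.

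**Figure D3:**
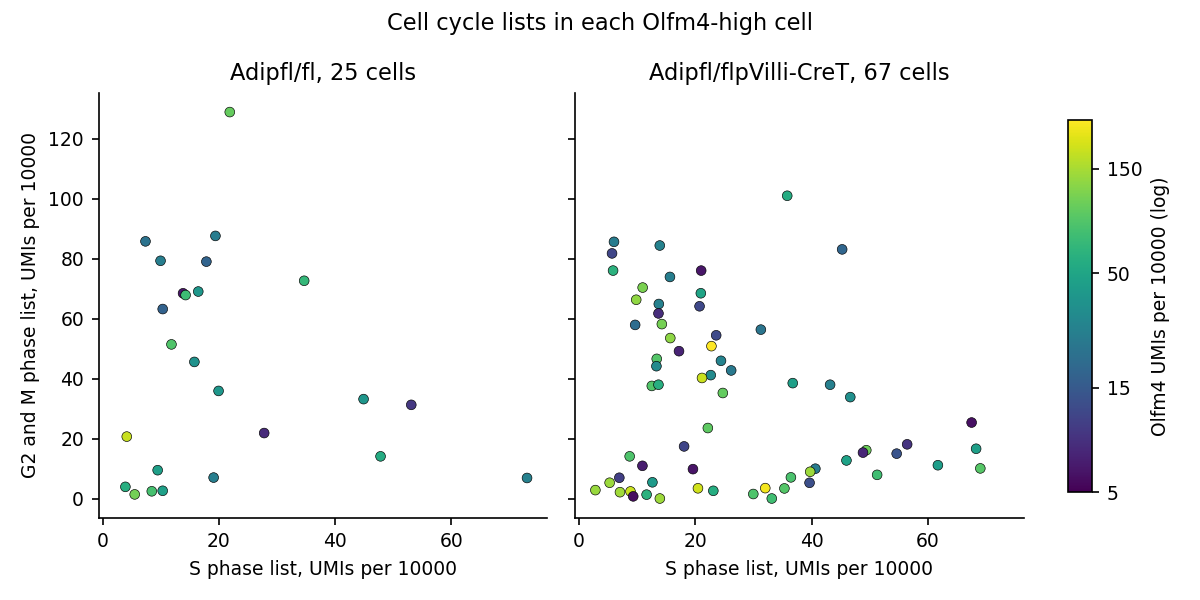
Each point is an Olfm4-high cell of Adipfl/fl (left, 25 cells) or Adipfl/flpVilli-CreT (right, 67 cells), placed by its UMIs per 10000 of the S phase list (x axis) and of the G2 and M phase list (y axis) and coloured by Olfm4 UMIs per 10000 (log colour scale). The highest G2 and M phase value is 129 in Adipfl/fl and 101 in Adipfl/flpVilli-CreT.

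Olfm4-high cells made up 0.815% (0.528% to 1.2%) of passing cells in Adipfl/fl and 1.21% (0.936% to 1.53%) in Adipfl/flpVilli-CreT. The ratio of the shares was 1.48 (0.923 to 2.45), an interval that included 1. Over epithelial cells the shares were 1.05% and 1.43%, with a ratio of 1.36 (0.850 to 2.26). The side of 1 on which this interval lay depended on the mitochondrial limit. That limit kept 3069 of 7739 barcodes with more than 500 genes in Adipfl/fl and 5555 of 9818 in Adipfl/flpVilli-CreT. The ratio was 2.25 (1.25 to 4.29) with a limit of 10%, 2.12 (1.34 to 3.47) with no limit and 2.20 (1.37 to 3.62) when the limit was read from the 13 protein-coding mitochondrial genes alone. Without the goblet limit it was 1.68 (1.06 to 2.76).

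Between the libraries, 3716 genes had at least 50 CPM in the selected cells of the higher library and 20 UMIs in all. Of these, 128 (3.44%) were at least 1.5-fold higher in Adipfl/flpVilli-CreT and 184 (4.95%) at least 1.5-fold lower, and the median log2 fold was -0.02. No test stands behind these counts, and 88 of the 312 genes had counting intervals that included 1. The level limit of 50 CPM was met in 1 library alone by 84 of the 128 higher and 136 of the 184 lower genes. With the cells thinned to 5000 UMIs, 562 of 3430 genes counted were higher and 480 lower. That setting kept 20 and 60 cells and far fewer UMIs, so that its counting error was larger. Without the richest cell of each gene 233 were higher and 100 lower. With equal weight for each cell 360 were higher and 518 lower. Leaving out the richest cell often takes a larger part of the sum from 25 cells than from 67, which can raise the folds. Not every fold rose, as that of mt-Nd3 went from 2.14 to 1.99 and that of Mt2 from 1.03 to 1.01.

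**Figure D4:**
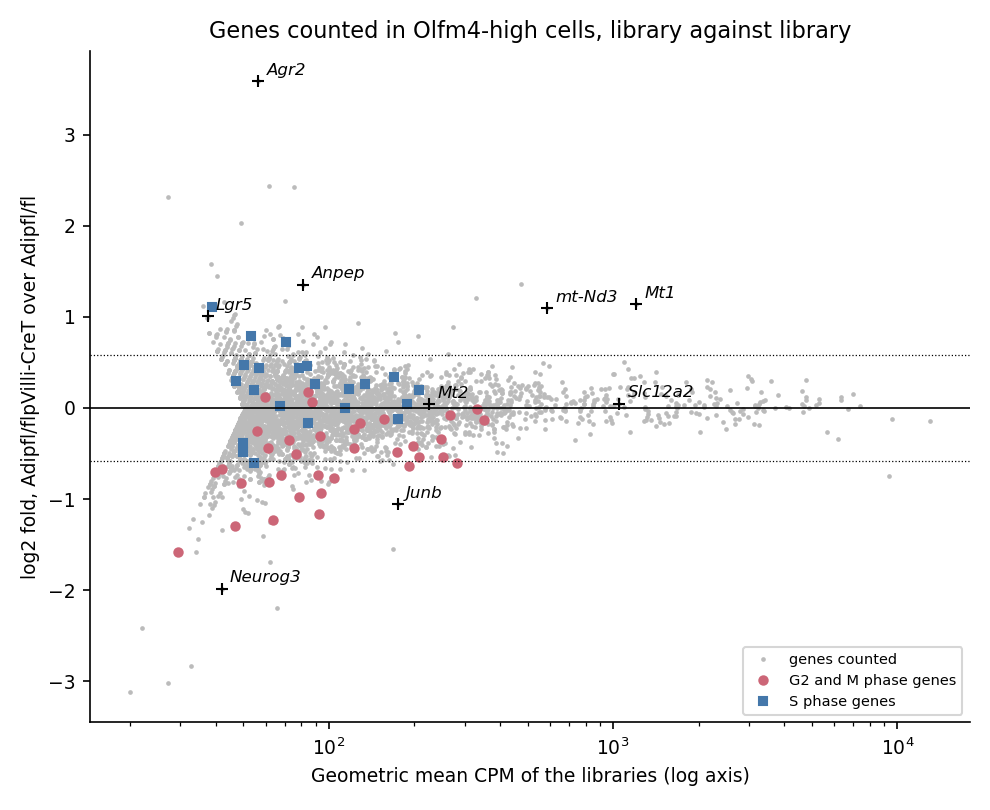
Each grey point is 1 of the 3716 genes counted in Olfm4-high cells, by its geometric mean CPM over the libraries (x axis, log) and its log2 fold of Adipfl/flpVilli-CreT over Adipfl/fl (y axis; dotted lines mark 1.5-fold). Genes of the G2 and M phases (red circles) lie mostly below 0, with a median of -0.50, S phase genes (blue squares) mostly above, with a median of 0.23, and Mt1 and mt-Nd3 stand apart among the abundant genes.

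Among genes found in at least 10% of the cells of the higher library, with under 25% of that library's UMIs in 1 cell, the 10 with the highest folds in Adipfl/flpVilli-CreT were Gstp1, Ano9, Gm10076, Anpep, Tff3, Sec61g, Rfx7, Mt1, Sh3gl1 and Tipin. Gstp1, a glutathione transferase, went from 11 UMIs (22.4 CPM) to 98 UMIs (66.7 CPM), a fold of 2.98 (1.59 to 6.17). In cycling cells of low Olfm4 its fold was 1.93 (1.72 to 2.18). Sec61g, a subunit of the channel that brings proteins into the endoplasmic reticulum, was at 46.8 and 105 CPM, 2.25-fold (1.45 to 3.66), and its fold in cycling cells of low Olfm4 was also 2.25 (1.98 to 2.57). Gm10076, at 295 and 757 CPM, is a near copy of the ribosomal protein gene Rpl41, so its reads may be shared with that gene. It too was higher in cycling cells of low Olfm4, by 2.18-fold (2.06 to 2.32). By contrast Ano9, a membrane protein of the anoctamin family (24.4 and 66.7 CPM, 2.73-fold, 1.5 to 5.47), Rfx7 (28.5 and 63.9 CPM, 2.25-fold, 1.27 to 4.27) and Sh3gl1 (24.4 and 53.1 CPM, 2.17-fold, 1.18 to 4.39) had folds of 0.998, 0.971 and 0.891 in cycling cells of low Olfm4, although the difference between the cell sets was not tested. Tff3 was used by the selection.

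Among the 10 genes with the lowest folds were Slc7a6os, Mir6236, 1700097N02Rik, Ccdc77, Ect2, Entr1, Agap1, Ifi35 and Il17rc. Slc7a6os had 29 UMIs in each library, 59.0 CPM against 19.7 CPM, a fold of 0.335 (0.193 to 0.580). The interferon-induced Ifi35 was at 50.8 and 21.8 CPM, a fold of 0.428 (0.246 to 0.754). Agap1, which regulates membrane traffic, was at 99.6 and 42.2 CPM. Mir6236 is annotated as a microRNA gene, but was handled as ribosomal RNA in the alternative setting that left such genes out of the total. It was at 287 and 97.9 CPM and was lower in cycling cells of low Olfm4 (0.570-fold) and enterocyte cells (0.445-fold) as well (its fold in Olfm4-high cells was 0.342, 0.269 to 0.434). Ect2, which starts the cleavage of dividing cells, belongs to the G2 and M phase genes described next.

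Genes of the G2 and M phases were lower in the Adipfl/flpVilli-CreT cells as a group. Of 46 genes on the list 35 were counted, of which 15 were at least 1.5-fold lower, none was at least 1.5-fold higher, and 3 were higher at all, with a median log2 fold of -0.50. Over all genes counted the same figures were 4.95% lower, 3.44% higher and a median of -0.02. Some of the 15, such as Ect2 (73.2 and 29.9 CPM) and Knl1, reached the level limit of 50 CPM in Adipfl/fl alone. The summed level was 5623 CPM in Adipfl/fl and 4141 CPM in Adipfl/flpVilli-CreT, a fold of 0.737 (0.704 to 0.771), and in cycling cells of low Olfm4, which were chosen by these same genes, the sum had a fold of 0.987. Mki67, the proliferation marker Ki-67, went from 171 UMIs (348 CPM) to 337 UMIs (229 CPM), a fold of 0.659 (0.547 to 0.797), just past the limit. The Mki67 fold was 0.722 (0.462 to 1.15) with cells thinned to 5000 UMIs, 0.709 without its richest cell and 0.544 with equal weight for each cell. Top2a, the topoisomerase that untangles replicated chromosomes, was at 303 and 208 CPM, a fold of 0.687 (0.563 to 0.841), which was 0.906 with equal weight for each cell, 0.852 (0.484 to 1.56) with cells thinned to 5000 UMIs and 0.836 (0.662 to 1.06) without its richest cell. Other settings moved the Top2a fold the other way. It was 0.537 (0.433 to 0.667) with a goblet limit of 0.2% and 0.555 (0.439 to 0.705) with at least 10 Olfm4 UMIs and 20 per 10000. Without the deepest cell of each library it was 0.569 (0.461 to 0.705). The spindle gene Tpx2 (138 and 61.9 CPM, 0.448-fold, 0.323 to 0.622), the kinetochore gene Knl1 (97.6 and 41.5 CPM, 0.425-fold, 0.287 to 0.634) and the motor Kif20b (130 and 68.0 CPM, 0.523-fold, 0.378 to 0.727) were further down. The abundant members Cks2 (368 and 335 CPM, 0.909-fold, 0.765 to 1.08) and Ube2c (333 and 330 CPM, 0.989-fold, 0.827 to 1.19), and the cyclin-dependent kinase Cdk1 (85.4 and 89.1 CPM), were close to equal. In single cells the G2 and M phase levels of the libraries overlapped over nearly their whole range. After thinning, Mki67 was seen in 14 of 20 cells (70%, 45.7% to 88.1%) and 27 of 60 cells (45%, 32.1% to 58.4%), and unthinned in 76% and 70.1%. The median log2 fold ran from -0.61 to -0.32 over the alternative settings, with the latter found without the richest cell of each gene, and without the deepest cell of each library the summed fold was 0.799.

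S phase genes leaned the other way. Of 40 genes 22 were counted, of which 17 were higher in Adipfl/flpVilli-CreT, 3 at least 1.5-fold (3.44% of all genes) and 1 at least 1.5-fold lower (4.95%), with a median log2 fold of 0.23 that ran from 0.05 to 0.50 over the alternative settings and was 0.09 without the deepest cell of each library. The 3 genes were Tipin, a protector of replication forks (26.4 and 57.1 CPM, 2.16-fold, 1.2 to 4.23), Cdt1, which licenses replication origins (40.7 and 70.1 CPM, 1.72-fold, 1.06 to 2.94), and Mcm2, a subunit of the replicative helicase (54.9 and 90.5 CPM, 1.65-fold, 1.08 to 2.59). Tipin and Cdt1 reached 50 CPM in Adipfl/flpVilli-CreT alone. Dtl, which marks Cdt1 for destruction, was at 67.1 and 44.2 CPM, a fold of 0.659 (0.427 to 1.03). The most abundant members, Dut (1.15-fold, 0.911 to 1.46), Pcna (1.03-fold, 0.813 to 1.32), Hells (1.27-fold, 0.977 to 1.66) and Slbp (0.918-fold, 0.719 to 1.18), had intervals that included 1. Replication-dependent histones, whose transcripts mostly lack the poly(A) tail that the method captures, had 6 of 64 genes counted. Of these H1f5 (112 and 34.7 CPM), H4c4 (95.5 and 36.0 CPM) and H1f4 (85.4 and 56.5 CPM) were at least 1.5-fold lower (4.95% of all genes were), with 30 of the 55 H1f5 UMIs of Adipfl/fl in 1 cell.

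**Figure D5:**
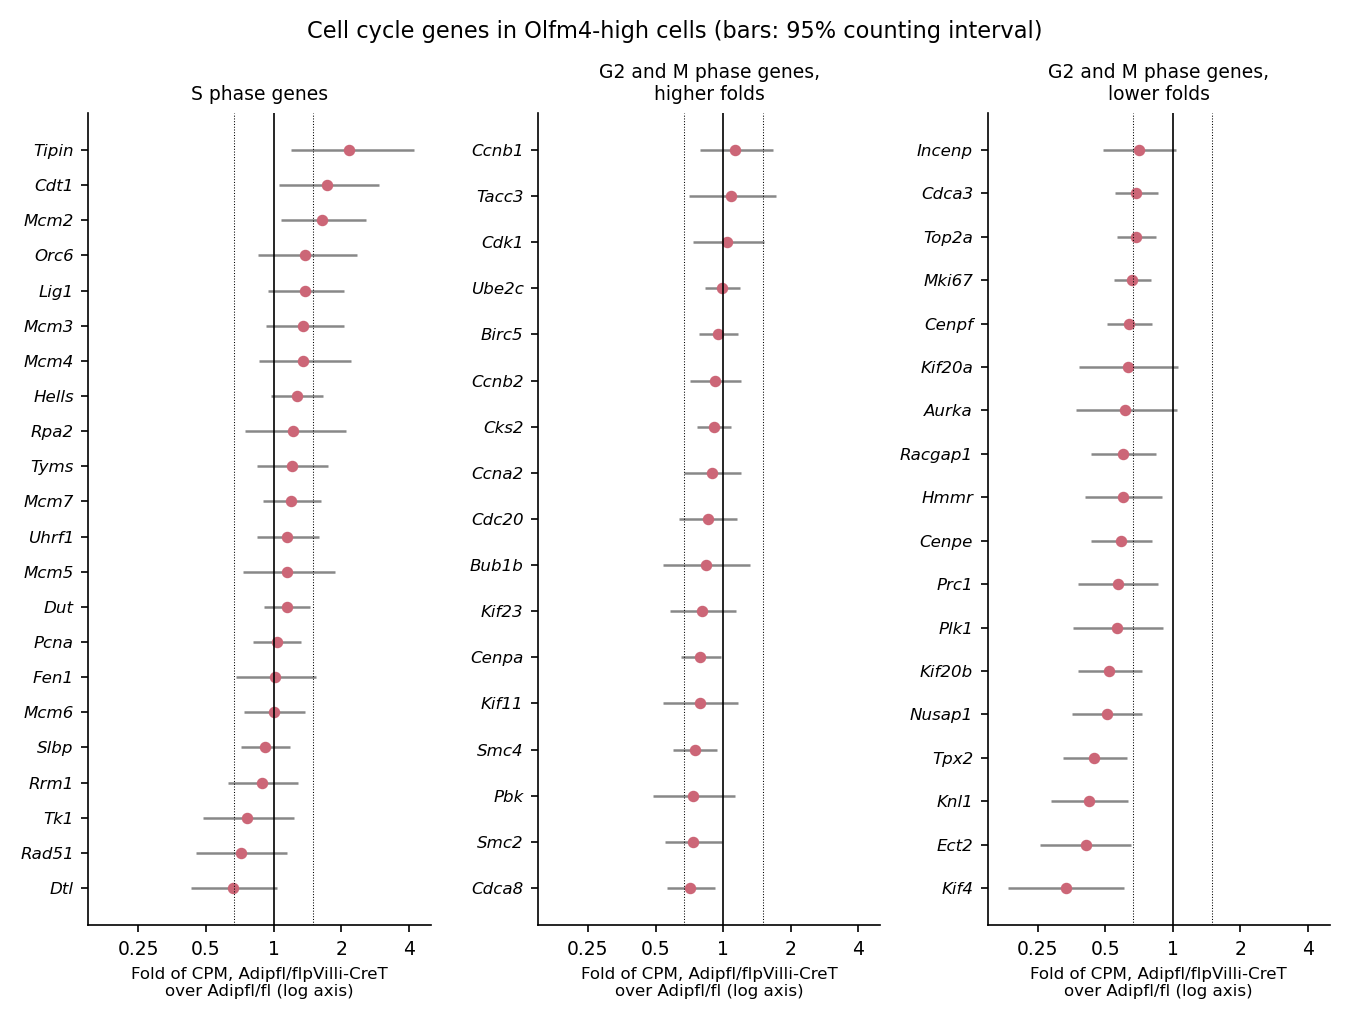
Fold of CPM in Olfm4-high cells, Adipfl/flpVilli-CreT over Adipfl/fl (log axis; points), with exact 95% counting intervals (bars), for the 22 S phase genes and the 35 genes of the G2 and M phases that were counted; the solid line marks equal levels and the dotted lines 1.5-fold. In all, 15 of the G2 and M phase genes lie beyond the lower dotted line and none beyond the upper, with Kif4 lowest at 0.335-fold, while Tipin at 2.16-fold is the highest S phase gene.

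Stem cell markers and Wnt target genes were close to equal. Leaving out Olfm4, 18 of 32 genes were counted, of which 14 were higher in Adipfl/flpVilli-CreT, with 1 at least 1.5-fold higher, Lgr5 (3.44% of all genes were), none 1.5-fold lower (4.95%), and a median log2 fold of 0.08. Over all genes 1768 of 3716 were higher. Rnf43, a Wnt target that removes Wnt receptors, was at 42.7 and 63.9 CPM, just under the limit at a fold of 1.498 (0.926 to 2.53). Rgmb, a BMP co-receptor, was at 91.5 and 130 CPM, 1.42-fold (1.02 to 2.01). Sox9, a transcription factor of the crypt, was at 181 and 171 CPM (0.944-fold, 0.738 to 1.22), Axin2, a feedback inhibitor of Wnt signalling, at 148 and 147 CPM (0.990-fold, 0.756 to 1.31), and Cdca7 at 228 and 237 CPM (1.04-fold, 0.838 to 1.30). The median turned to -0.01 without the deepest cell of each library.

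Receptors and transducers of the pathways that govern these cells were read beside the shares over all genes, 3.44% at least 1.5-fold higher and 4.95% at least 1.5-fold lower. Of 14 Wnt pathway genes counted none was past 1.5-fold in either direction. Ctnnb1, which encodes beta-catenin, was at 287 and 323 CPM (1.13-fold, 0.932 to 1.37), Ccnd1, cyclin D1, at 405 and 403 CPM (0.997-fold, 0.848 to 1.18), and the receptor Fzd5 at 159 and 112 CPM (0.708-fold, 0.537 to 0.939). Of 20 genes of the PI3K, Akt and mTOR pathway none was past 1.5-fold, with Pik3r1 at 175 and 201 CPM (1.15-fold, 0.903 to 1.48), Eif4ebp2 at 154 and 165 CPM and Rps6 at 618 and 630 CPM (1.02-fold, 0.895 to 1.17). Of 5 genes of the Hippo pathway, such as Mob1a (89.4 and 96.6 CPM) and Vgll4 (99.6 and 90.5 CPM), again none was. Of 11 receptors and targets of EGF and BMP signalling, Bmpr2 alone was past 1.5-fold, at 50.8 and 25.8 CPM (0.509-fold, 0.299 to 0.879) and thus at 50 CPM in Adipfl/fl alone, while the BMP target Id1 was at 189 and 185 CPM. Among 13 Notch pathway genes and lineage factors, Hes6 was higher, at 69.1 and 112 CPM (1.62-fold, 1.12 to 2.42), and Klf4, a factor of differentiating cells, was lower, at 138 and 87.1 CPM (0.630-fold, 0.466 to 0.858). The Notch target Hes1 was at 220 and 243 CPM (1.11-fold, 0.892 to 1.39). The third gene past the limit, Neurog3, is described with the enteroendocrine genes.

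UMIs of the adiponectin receptors were counted in both libraries. The part of them that came from free transcripts outside the cells was not tested. Adipor1 was at 83.3 CPM (41 UMIs) in Adipfl/fl and 105 CPM (155 UMIs) in Adipfl/flpVilli-CreT, a fold of 1.26 (0.891 to 1.83), and Adipor2 at 67.1 and 71.4 CPM, a fold of 1.06 (0.714 to 1.63). With cells thinned to 5000 UMIs the fold was 1.8 (0.683 to 5.99) for Adipor1 and 1.92 (0.655 to 7.62) for Adipor2. After thinning, an Adipor1 UMI was found in 25% and 33.3% of the cells against 37.4% and 37.1% of enterocyte cells. An Adipor2 UMI was found in 20% and 33.3% against 80% and 77.0%. Stk11, which encodes the kinase LKB1 that acts upstream of AMPK (85.4 and 81.6 CPM), and Cab39, a partner of LKB1 (114 and 102 CPM), had folds of 0.956 and 0.896, both with intervals including 1.

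Genes of protein synthesis, energy supply, protein folding, stress and antigen presentation were read beside the same shares over all genes, 3.44% at least 1.5-fold higher, 4.95% at least 1.5-fold lower and 1768 of 3716 higher at all. Of 81 cytosolic ribosomal protein genes counted 2 were at least 1.5-fold higher, among them Rps4l (1.5-fold, 1.12 to 2.05), and none was at least 1.5-fold lower. In all 50 of the 81 were higher, and the median log2 fold was 0.03. This median turned just below 0 with a mitochondrial limit of 10% or a lower Olfm4 threshold. Of 78 nuclear genes of oxidative phosphorylation Atp5l alone was past the limit (1.73-fold, 1.36 to 2.24), with a median of 0.03. Of 22 genes of protein folding and secretion in the endoplasmic reticulum, 17 were higher, Herpud1 (52.9 and 89.8 CPM, 1.70-fold, 1.11 to 2.70) and Sec61g past 1.5-fold, with a median of 0.16. Hspa5, the chaperone BiP, was at 350 and 421 CPM (1.2-fold, 1.02 to 1.43). Of 14 immediate early and heat shock genes, which can respond to tissue dissociation, Junb (252 and 121 CPM, 0.480-fold, 0.380 to 0.609, but 0.68-fold, 0.414 to 1.15, with cells thinned to 5000 UMIs) and Btg2 (238 and 152 CPM, 0.638-fold, 0.508 to 0.805) were at least 1.5-fold lower, while Fos (0.951-fold, 0.795 to 1.14) and Hspa8 (1.03-fold, 0.917 to 1.16) were not. Among those 14 genes 2 were higher at all, and the summed fold was 0.889 (0.846 to 0.935). Their median log2 fold was -0.16, and 0.0075 without the richest cell of each gene. Of 4 MHC class II genes counted none was past 1.5-fold, and Cd74 was at 445 and 416 CPM.

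Of 11 mitochondrially encoded protein genes counted, mt-Nd3, a subunit of respiratory complex I, alone was past 1.5-fold (over all genes 3.44% were higher and 4.95% lower by that much). It gave 197 UMIs (400 CPM) in Adipfl/fl and 1258 UMIs (856 CPM) in Adipfl/flpVilli-CreT, a fold of 2.14 (1.84 to 2.5). Other mitochondrially encoded genes, such as mt-Nd1 (0.994-fold, 0.955 to 1.03), mt-Nd4 (1.07-fold, 1.03 to 1.12) and mt-Cytb (0.919-fold, 0.889 to 0.950), were near 1. Outside the crypt base cells mt-Nd3 was also higher, by 2.5-fold in cycling cells of low Olfm4 and by 2.38-fold in enterocyte cells of the Adipfl/flpVilli-CreT library.

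Mt1, a metallothionein that binds zinc and copper, was higher in the Adipfl/flpVilli-CreT cells, while its neighbour Mt2 was not. Mt1 gave 399 UMIs (811 CPM) in Adipfl/fl and 2630 UMIs (1789 CPM) in Adipfl/flpVilli-CreT, a fold of 2.21 (1.98 to 2.46). Its levels in single cells ran from 0 through a median of 5.30 to 15.8 UMIs per 10000 and from 4.5 through 16.5 to 46.2, so that the upper cells of the first library overlapped the lower cells of the second. Mt2 was at 222 and 229 CPM, a fold of 1.03 (0.829 to 1.29). Mt1 was also higher in cycling cells of low Olfm4, by 3.08-fold (3.0 to 3.17), and in enterocyte cells, by 6.58-fold. Mt2 was lower in both of these sets, at 215 and 143 CPM in cycling cells of low Olfm4 (0.664-fold, 0.617 to 0.714) and at 45.7 and 25.7 CPM in enterocyte cells (0.562-fold, 0.498 to 0.635). Both genes are known to be induced by metals through short metal response elements. The windows from 250 bases before to 50 bases after their annotated starts (RefSeq, GRCm38.p6, forward strand) are shown to let these neighbours be compared, with every TGCACNC or TGCGCNC on either strand, the core of that element, in capitals. The Mt1 window is chr8:94178839-94179138 and the Mt2 window chr8:94172368-94172667.
Mt1: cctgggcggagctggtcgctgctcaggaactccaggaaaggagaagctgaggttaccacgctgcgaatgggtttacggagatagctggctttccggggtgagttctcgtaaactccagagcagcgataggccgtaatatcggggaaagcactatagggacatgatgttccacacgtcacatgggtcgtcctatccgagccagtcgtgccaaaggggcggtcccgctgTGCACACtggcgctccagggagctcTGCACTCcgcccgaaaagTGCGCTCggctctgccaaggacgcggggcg
Mt2: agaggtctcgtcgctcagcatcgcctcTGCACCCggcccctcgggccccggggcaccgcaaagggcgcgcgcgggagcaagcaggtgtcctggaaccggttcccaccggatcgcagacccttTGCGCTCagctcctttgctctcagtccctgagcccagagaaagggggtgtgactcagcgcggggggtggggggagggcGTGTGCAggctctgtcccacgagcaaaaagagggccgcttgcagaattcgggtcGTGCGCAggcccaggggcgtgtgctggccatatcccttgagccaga
The core occurred 3 times in the Mt1 window, all on the forward strand, and 4 times in the Mt2 window, 2 on each strand. Whether transcripts begin at the annotated starts in these cells was not tested, so the windows need not cover matching parts of the promoters. Of 32851 such windows in the table, 25.7% held at least 1 core, 1.97% at least 3 and 0.517% at least 4. A match is a match of letters and does not show that a factor binds there. Of the lectins of the Reg family, Reg3b was at 457 and 531 CPM (1.16-fold, 0.999 to 1.35) and Reg3g at 398 and 330 CPM (0.828-fold, 0.7 to 0.982).

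Transcripts of other cell types were measured in the same cells. Enterocyte genes had a median of 13.7 UMIs per 10000 in Adipfl/fl and 16.7 in Adipfl/flpVilli-CreT, but the highest cells reached 340 and 637 per 10000. Of 13 counted, Anpep (50.8 and 130 CPM, 2.56-fold, 1.68 to 4.05), Slc5a1 (91.5 and 174 CPM, 1.90-fold, 1.38 to 2.67) and Sis (48.8 and 91.1 CPM, 1.87-fold, 1.2 to 3.02), all digestive or absorptive proteins of the brush border, were at least 1.5-fold higher (3.44% of all genes) and Krt20 (93.5 and 59.2 CPM) was at least 1.5-fold lower (4.95%). The median log2 fold of the enterocyte genes was 0.33, and moved from -0.19 with cells thinned to 5000 UMIs to 0.96 with a threshold of 2 Olfm4 UMIs and 2 per 10000. Apoa1, the most abundant, was at 886 and 1146 CPM (1.29-fold, 1.16 to 1.44), in single cells from 0 through 3.28 to 143 and from 0 through 4.95 to 280 UMIs per 10000. Without cells of 1% or more enterocyte UMIs its fold was 1.05 (0.915 to 1.2) and that of Anpep 1.5 (0.956 to 2.45). With cells thinned to 5000 UMIs the Apoa1 fold was 0.730 and that of Anpep 12 (2.02 to 487). Equal weight for each cell gave 1.09 for Apoa1 and 5.73 for Anpep. With the lower Olfm4 threshold the folds were instead 1.97 (1.78 to 2.18) for Apoa1 and 4.63 (3.11 to 7.19) for Anpep, so that both depended on the cells included. In thinned cells an Apoa1 UMI was present in 85% and 90% of Olfm4-high cells and in all 685 and 1325 enterocyte cells.

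Goblet cell genes summed to 439 and 1343 CPM, a fold of 3.06 (2.66 to 3.54), with Tff3 the most abundant. The same sum was 1.98-fold higher in cycling cells of low Olfm4 and 2.24-fold higher in enterocyte cells. A Muc2 UMI was seen in 10% and 31.7% of thinned Olfm4-high cells and in 24.1% and 42.6% of thinned enterocyte cells, with the first pair of shares limited by the selection itself. The part of free or doublet goblet cell transcripts in the Olfm4-high cells was not tested. Of the 14 genes, 6 had been used by the selection, and of the others Agr2 alone was counted, with 8 UMIs (16.3 CPM) in Adipfl/fl and 287 UMIs (195 CPM) in Adipfl/flpVilli-CreT, of which 172 were in 1 cell. Enteroendocrine genes summed to 226 and 61.2 CPM, but 104 of the 111 UMIs of Adipfl/fl and 30 of the 90 UMIs of Adipfl/flpVilli-CreT were in 1 cell each. Without these cells, a setting chosen after seeing the data, the order was the opposite, with 7 UMIs (16.3 CPM) and 60 UMIs (42.2 CPM). The sum of enteroendocrine genes was lower in cycling cells of low Olfm4 (0.356-fold) and in enterocyte cells (0.529-fold) of the Adipfl/flpVilli-CreT library. The 41 Neurog3 UMIs and 29 Neurod1 UMIs of Adipfl/fl were each in 1 cell, and Neurog3 was in 2 cells of Adipfl/flpVilli-CreT (31 UMIs). Paneth cell genes summed to 44.7 and 90.5 CPM (2.02-fold, 1.28 to 3.34), led by Defa24 with 6 and 45 UMIs. Of the Paneth UMIs, 9 of 22 in Adipfl/fl and 37 of 133 in Adipfl/flpVilli-CreT were in 1 cell each. Lyz1, the lysozyme of Paneth cells, was seen in 0 of 20 thinned cells, which allows a share of up to 15% by a limit of 3 cells, and in 4 of 60, against 0.292% and 1.28% of enterocyte cells. The sum of Paneth genes was also 2.31-fold higher in cycling cells of low Olfm4 and 2.97-fold higher in enterocyte cells.

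Markers of tuft cells and of cells from outside the epithelium were scarce. The selection itself had held 2 genes of the T cell list and 1 of the tuft cell list at 0. T cell genes summed to 34.6 and 25.2 CPM, led by Ccl5, with Ptprc, the common leukocyte antigen, at 0 in both libraries. B and plasma cell genes summed to 18.3 and 21.1 CPM, led by Igkc, and myeloid genes to 10.2 and 8.16 CPM. Tuft cell genes summed to 4.07 and 2.72 CPM, with Dclk1 at 0. Fibroblast, muscle and endothelial genes gave 1 UMI in Adipfl/fl and none in Adipfl/flpVilli-CreT, and haemoglobin genes gave none in either. Epithelial genes such as Epcam summed to 8442 and 8386 CPM.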

How the data were processed

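The authors sequenced 1 droplet library (10x Genomics, 3′ chemistry) per genotype after removal of dead cells, and made the deposited UMI counts per gene and barcode with Cell Ranger (7.1.0 in the file header, a version that differs from that in the methods) on mm10. bcl2fastq 5.0.1 is named in the submitters' processing notes. The deposited counts are not normalised. Cells and gene lists were chosen with earlier results of these data known. From the counts, UMIs were summed over the selected cells and given as CPM of their own total. A gene was counted where the library with more of it reached 50 CPM and both libraries together gave 20 UMIs, and a fold of 1.5 in either direction was the limit. Intervals are exact (Clopper-Pearson for shares, conditional binomial for folds) at 95%. Where a count was 0, a limit of 3 (UMIs or cells) was used in place of an interval. Cells were epithelial with at least 3 UMIs of epithelial genes and no Ptprc, Cd3e or Cd3g. Shares of cells with a UMI came from cells thinned to 5000 UMIs. Levels from 3′ UMIs are compared within a gene, not between genes.

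Named genes were the 5 markers, the 15 genes highest over other epithelial cells, the 10 highest and 10 lowest folds between libraries among genes seen in at least 10% of the cells of the higher library with under 25% of UMIs in 1 cell, the adiponectin genes, mt-Nd3, Agr2 and Apoa1, and up to 4 abundant members of each list. Other list members were named after their values were seen, and 2 genes that these rules reach are not reported here. Calculations used Python 3.11.15 with numpy 2.4.6, scipy 1.17.1 and pandas 2.3.3, and the fold code was tested on simulated data. Promoter windows came from a RefSeq table for GRCm38.p6.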

Additional observations from a re-analysis of the deposited data

Results flagged for a closer look

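The selection set aside cells that met every criterion but the mitochondrial limit. There was 1 such cell in Adipfl/fl, with 42.4% of UMIs from mitochondrial genes, and there were 3 in Adipfl/flpVilli-CreT, with a median of 33.4%. They are listed because they lie outside the cells used in every comparison. Olfm4 is above the threshold in them by the way they were found.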

How the results depend on the processing

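No paired analysis was possible because each genotype had 1 library. Of 149 alternative values for the main comparisons 121 stayed within the interval of the reported value (or within 1.5 times of a count), as did 483 of 529 for single genes and lists; some of these changed sign where that interval spanned no change. Causes were not tested. Genes at least 1.5-fold higher and lower numbered 215 and 320 with at least 10 Olfm4 UMIs and 20 per 10000, 360 and 518 with equal cell weight, 562 and 480 thinned to 5000 UMIs, 507 and 673 at a minimum of 20 CPM, 9 and 7 at 200 CPM, and 233 and 100 without the richest cell of each gene; 19 and 36 passed 2-fold. The median log2 fold of all genes became 0.0273 at 200 CPM and 0.0576 without the richest cell per gene. For G2 and M phase genes it was -0.32 without the richest cell, and their summed fold 0.702 with a mitochondrial limit of 10% and 0.799 without the deepest cell of each library, a setting chosen after seeing the data that also turned the stem list's median to -0.0105. The S phase median was 0.50 with equal cell weight and 0.05 with at least 2 Olfm4 UMIs. The ribosomal median turned to -0.0176 with at least 2 Olfm4 UMIs and 2 per 10000 and to -0.00017 with the 10% limit, the immediate early and heat shock median to 0.00754 without the richest cell, and the Apoa1 fold to 0.730 when thinned. The ratio of shares was 2.25 (10% limit), 2.12 (no limit), 2.20 (limit from 13 genes) and 1.68 (no goblet limit). In Adipfl/flpVilli-CreT, Lgr5 was seen in 40.3% of cells without thinning and 13.4% at 2000 UMIs, and Mki67 in 70.1% and 22.4%; in Adipfl/fl Mki67 was seen in 44.0% at 2000 UMIs. Depth limits every share of cells with a UMI.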
